A study of Mus musculus with 8 samples.

Results

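The genes described here are 7 mouse genes of the 2-cell stage, Zscan4c, Zscan4d and Zscan4f on chromosome 7, Tcstv1 and Tcstv3 on chromosome 13, and Tdpoz3 and Tdpoz4 on chromosome 3. They were chosen by name, as genes expressed in 2-cell-like cells, and were read through the compartment score of the 100-kb bins that their gene bodies overlap (mm10). The 7 genes, of 20807 protein-coding autosomal genes, overlap 8 bins, of 23972 scored in all 8 libraries. Bins 500 kb to either side of each cluster were read as well. The scores come from Hi-C of mouse embryonic stem cells (mESCs), in which chromatin contacts are captured by ligation in fixed nuclei and read by sequencing. Scores above 0 belong to the A compartment, which is rich in active chromatin, and scores below 0 to the inactive B compartment. The score is an eigenvector entry with no physical unit. No expression was measured in these files, so a score says nothing of whether a gene was transcribed.

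The 8 groups held 1 library each. The Setdb1 groups all came from 1 conditional knockout line (#33-6), which was left untreated (Setdb1 WT), given the G9a/GLP inhibitor UNC0642 at 2 µM over 3 days (Setdb1 WT + UNC), given 4-hydroxytamoxifen (4-OHT) at 800 nM over 5 days (Setdb1 KO), or given 4-OHT for 2 days ahead of 3 days of UNC0642 (Setdb1 KO + UNC). Suv39h WT (ADF1-26) and Suv39h DKO (ADF157, without SUV39H1 and SUV39H2) are separate lines, each studied without and with the same UNC0642 treatment. Line and genotype cannot be told apart in the Suv39h groups, nor 4-OHT and SETDB1 loss in the Setdb1 groups, because Setdb1 WT had no 4-OHT. In the Setdb1 KO pair UNC0642 cannot be told apart from the length of 4-OHT exposure, 5 days without UNC0642 and 2 days with it. Differences between 2 libraries have no replicate check. Pearson r over bins, in 28 pairings of the libraries, lay between 0.958 and 0.990. Setdb1 WT + UNC stood apart from its line, with a mean r of 0.972 with the other Setdb1 libraries and 0.976 with the Suv39h libraries, and tests at the members are also given without it.

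Zscan4 genes encode SCAN-domain zinc finger proteins that are expressed in late 2-cell embryos and, in culture, in a small and changing fraction of mESCs, where they are known for a role in telomere maintenance. Tcstv genes belong to a variable gene group of the same stage, and Tdpoz genes encode proteins with TRAF and POZ domains. This program is switched on by the transcription factor DUX and is kept low in mESCs by chromatin repressors, among them the TRIM28-SETDB1 complex, which deposits H3K9me3, and G9a/GLP, which deposits H3K9me2. Each family lies in a tandem array of related copies, and short reads can fit several places where copies are near identical.

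The Zscan4 and Tcstv copies are close to identical where they align. Over gene-body columns aligned without a gap (GRCm38.p6, RefSeq), Zscan4c and Zscan4f shared 99.4% of bases, Zscan4c and Zscan4d 97.2%, and Zscan4d and Zscan4f 97.1%. Tcstv1 and Tcstv3 shared 96.2%, whereas Tdpoz3 and Tdpoz4 shared 79.2%. Bases opposite a gap were not counted. Zscan4c (4803 bases) and Zscan4f (4404 bases) aligned in 4381 columns. RefSeq promoter windows were matched for 4 of the 7 genes. The stretch of 216 bases that the windows of the Zscan4 genes share is printed here to show how little separates copies that lie in different bins. Bases that differ from Zscan4c are in capitals, 6 in Zscan4d and 1 in Zscan4f. The stretch lies at chr7:11005506-11005721 (plus strand) for Zscan4c, at chr7:11166183-11166398 (minus strand) for Zscan4d and at chr7:11397699-11397914 (plus strand) for Zscan4f.
Zscan4c: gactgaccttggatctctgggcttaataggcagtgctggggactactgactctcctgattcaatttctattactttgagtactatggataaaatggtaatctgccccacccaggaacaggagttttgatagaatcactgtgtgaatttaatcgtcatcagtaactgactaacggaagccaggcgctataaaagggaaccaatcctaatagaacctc
Zscan4d: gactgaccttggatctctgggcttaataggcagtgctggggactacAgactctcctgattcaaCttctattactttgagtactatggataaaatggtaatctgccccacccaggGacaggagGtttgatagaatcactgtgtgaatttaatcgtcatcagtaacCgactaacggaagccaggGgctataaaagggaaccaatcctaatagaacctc
Zscan4f: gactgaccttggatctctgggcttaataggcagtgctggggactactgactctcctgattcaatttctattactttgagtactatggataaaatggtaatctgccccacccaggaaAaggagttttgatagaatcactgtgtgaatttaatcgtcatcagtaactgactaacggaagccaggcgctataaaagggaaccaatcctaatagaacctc

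By the GENCODE vM21 annotation, Zscan4c (chr7:11005745-11010547, plus strand) lies in the bin from 11000001 and Zscan4d (chr7:11161374-11166159, minus strand) in the bin from 11100001. Zscan4f (chr7:11397915-11402318, plus strand) crosses a bin border and was read as the mean of the bins from 11300001 and 11400001. Tcstv1 (chr13:119893388-119894785, minus strand) lies in the bin from 119800001 and Tcstv3 (chr13:120316878-120318178, plus strand) in the bin from 120300001. Tdpoz4 (chr3:93796398-93797510, plus strand) lies in the bin from 93700001 and Tdpoz3 (chr3:93826020-93827117, plus strand) in the bin from 93800001. The 3 windows held 43 bin positions, of which 38 were scored in all 8 libraries, 8 as member bins, 5 between members and 25 as flank. The missing positions are all on the right of Tcstv3. The partial last bin of chromosome 13, from 120400001, was absent from all 8 libraries, and 4 further positions lie past the chromosome end, so Tcstv has flank on its left side alone. The bin of Tcstv3 is 78.4% assembly gap, and its score rests on the remaining sequence.

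The scores of the genes spanned both compartments. Averaged over the 8 libraries, the order from high to low was Tcstv1 at 0.0153 ± 0.00470 (SD, n = 8 libraries of different groups), Tdpoz3 at 0.00332 ± 0.0134, Tdpoz4 at -0.000528 ± 0.0114, Zscan4d at -0.00351 ± 0.00397, Tcstv3 at -0.00835 ± 0.00416, Zscan4c at -0.0105 ± 0.00276 and Zscan4f at -0.0172 ± 0.00308. The ranges of all 6 neighbouring pairs in this order overlapped. Library by library, Zscan4c was above Zscan4f in 8 of 8 and Tcstv1 above Tdpoz3 in 7 of 8, while the neighbours between them held their order in 5 or 6 of 8. Chromosomes are scored separately, so an order between clusters compares positions relative to each chromosome's own mean and scale. The squared scores summed to 0.857 to 0.997 on these chromosomes, over 1174 bins on chromosome 13 and 1569 on chromosome 3. A given step in score is therefore a different share of each chromosome's spread.

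The Zscan4 genes sat in B in nearly every library. In the order WT, WT + UNC, KO, KO + UNC, the Zscan4c bin scored -0.00974, -0.0126, -0.00860 and -0.00947 in the Setdb1 libraries. In the order WT, WT + UNC, DKO, DKO + UNC, it scored -0.0148, -0.0126, -0.0104 and -0.00594 in the Suv39h libraries. The groups therefore overlapped, and no library was above 0. In the same order Zscan4d scored -0.00612, -0.0102, 0.00220 and 0.000305 in the Setdb1 libraries, against -0.00362, -0.000731, -0.00474 and -0.00519 in the Suv39h libraries. Both Setdb1 KO libraries were thus the highest of the 8 and the ones above 0. Zscan4f, which is the lowest of the genes, had its lowest score, -0.0211, in Suv39h DKO + UNC and its highest, -0.0118, in Setdb1 KO.

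The sign of the Zscan4d score is not firm, because each chromosome of the deposited scores averages 0 and the mean that their sums of squares imply is large on chromosome 7, between 0.00843 and 0.0101. With that mean added, Zscan4d was above 0 in 7 of 8 libraries in place of 2, and Zscan4c in 1 in place of 0, whereas Zscan4f stayed below 0 in all 8. With it subtracted, no library had Zscan4d above 0, the Setdb1 KO libraries included. On chromosomes 3 and 13 the implied mean was smaller, from 0.00165 to 0.00475. It moved the signs of the Tdpoz genes less, taking Tdpoz3 from 4 libraries above 0 to 5 when added or 3 when subtracted, and Tdpoz4 from 3 to 4 or 3.

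The Tcstv genes lay on opposite sides. Tcstv1 was in A in all 8 libraries, with 0.0175, 0.0105, 0.0203 and 0.0196 in the Setdb1 libraries and 0.0103, 0.0154, 0.0196 and 0.00904 in the Suv39h libraries, again in the order WT, WT + UNC, knockout, knockout + UNC. Tcstv3, nearer to the chromosome end, was in B in all 8, from -0.0132 in Setdb1 KO to -0.00191 in Suv39h DKO. These signs held with the implied mean added or subtracted. A mean of both genes, from -0.00165 to 0.00886, therefore hides a border that runs between them.

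The Tdpoz genes varied most, with SDs over the 8 libraries of 0.0114 and 0.0134 against at most 0.00470 for the other 5 genes. In that order Tdpoz3 scored 0.0103, -0.0144, 0.0258 and 0.0171 in the Setdb1 libraries and -0.00649, -0.00439, 0.00252 and -0.00388 in the Suv39h libraries. Tdpoz4 scored 0.00540, -0.0142, 0.0131 and 0.0176 in the Setdb1 libraries and -0.00758, -0.0101, -0.00441 and -0.00406 in the Suv39h libraries. For both genes the Setdb1 KO libraries were the highest, Setdb1 WT came next, and Setdb1 WT + UNC was the lowest.

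**Figure D1:**
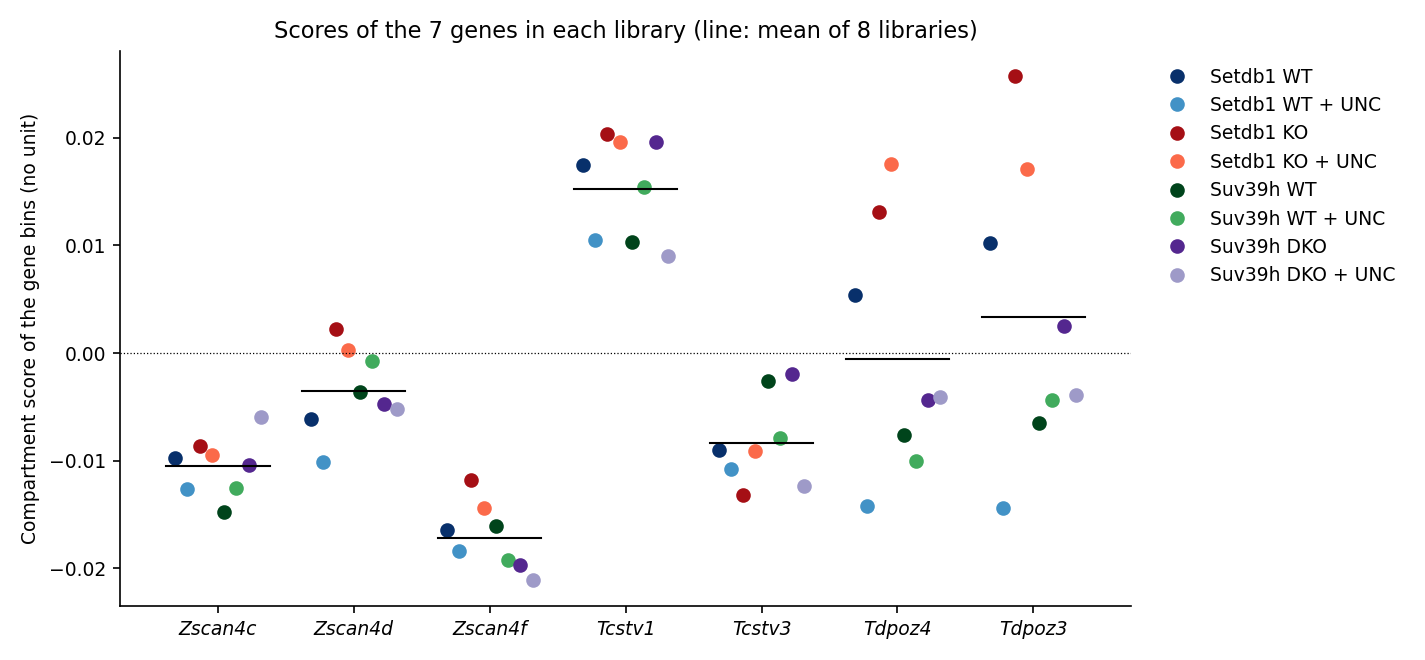
Compartment score (vertical axis, no unit) of the bins of each gene (horizontal axis) in each of the 8 libraries (coloured points), with the mean of the 8 libraries as a black line and 0 dotted. Tcstv1 lies above 0 and Tcstv3, Zscan4c and Zscan4f below 0 in all 8 libraries, whereas the Tdpoz genes spread from -0.0144 to 0.0258 with the Setdb1 KO libraries on top and Setdb1 WT + UNC at the bottom.

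The surroundings of the clusters differed in kind. The Zscan4 window had mean scores below 0 in all 15 bins, with the vomeronasal receptor genes Vmn1r68 to Vmn1r76 on its outer sides. Its highest bin held Vmn1r76 at -0.00171 ± 0.00586 (SD, n = 8) and its lowest Zscan4b, a further Zscan4 copy, at -0.0260 ± 0.00603. Averaged over bins, the members were at -0.0121 and the flank at -0.00948 over the 8 libraries, and member minus flank lay between -0.00466 in Setdb1 WT and 0.000993 in Setdb1 KO.

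The Tcstv window alternated on its left, where 3 of 5 flank bins were above 0 in all 8 libraries, and lay mostly below 0 to the right of Tcstv1. Its highest bin, at 0.0381 ± 0.0104, held Ccl28, a chemokine, Hmgcs1, an enzyme of cholesterol synthesis, and Tmem267. The lowest, at -0.0206 ± 0.00709, lay between the members and held B020031M17Rik and Gm21761. Member minus flank was below 0 in all 8 libraries, from -0.0199 to -0.000990, and here the flank is the left side alone, with 1 of its 5 bins being 95.5% assembly gap.

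The Tdpoz window held a trough with A bins on both sides. On its left side lie epidermal genes such as Flg, Hrnr and Tchh. The lowest bin, at -0.0412 ± 0.00799, held Tdpoz5 and Gm9117 and is the right-hand neighbour of the Tdpoz3 bin. The Tdpoz3 bin therefore adjoins a bin that was below 0 in all 8 libraries. The members scored 0.00140 ± 0.0122 and the flank 0.00389 ± 0.00701 over the 8 libraries.

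**Figure D2:**
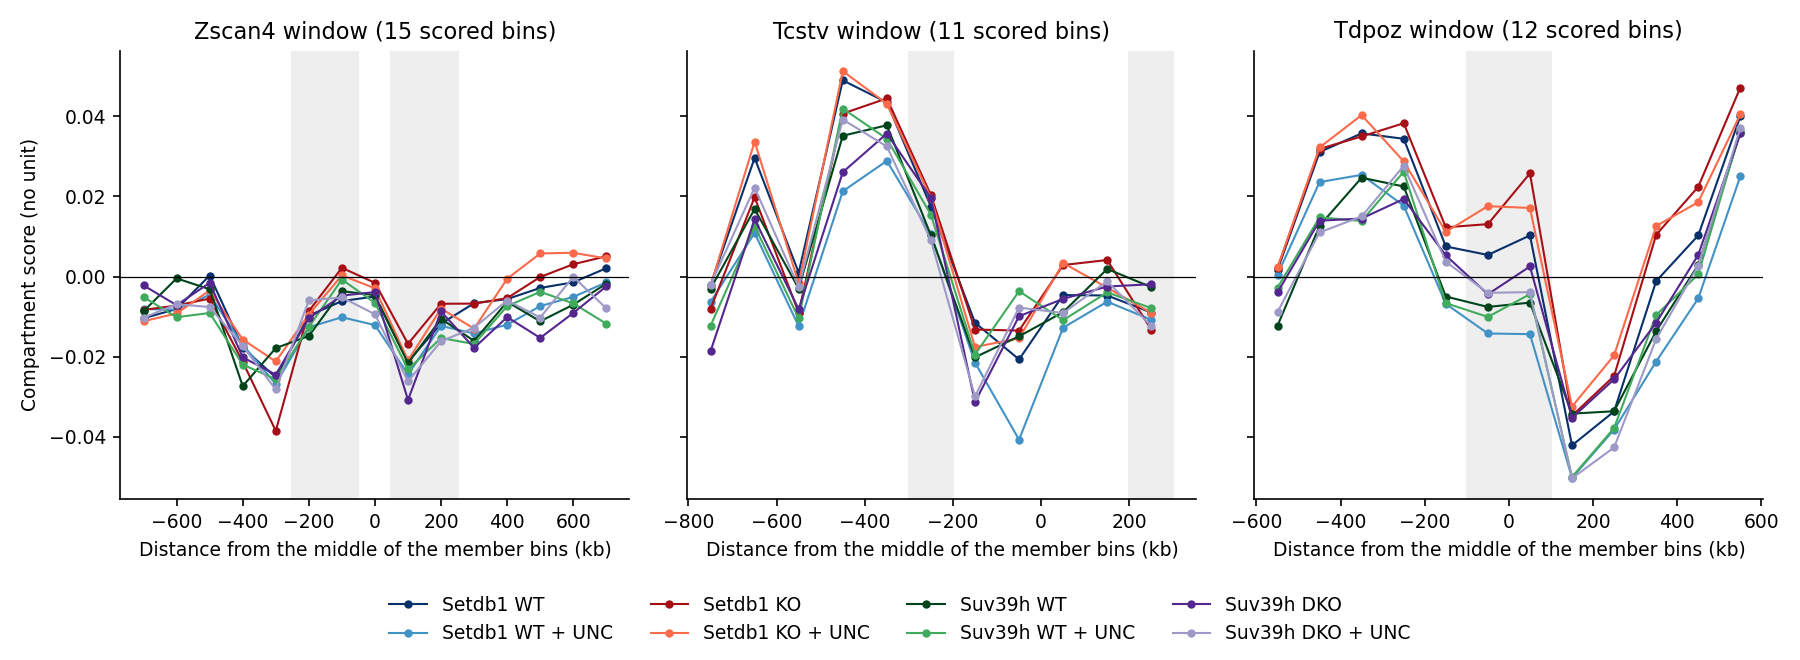
Compartment score (vertical axis, no unit) of every scored bin against its distance in kb from the middle of the member bins (horizontal axis), 1 panel per window and 1 line per library, with member bins shaded. The Zscan4 window stays near or below 0, the Tcstv window is mostly below 0 to the right of its first shaded bin, and in the Tdpoz window the libraries spread most over the Tdpoz3 bin (SD 0.0134), ahead of a trough with a mean of -0.0412.

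Repeated sequence was common at the members. Soft-masked bases, which RepeatMasker and similar tools mark as repeats, made up a median of 52.1% of the 8 member bins and 31.7% of all bins. Near copies were counted in the windows alone. A 100-base word was called repeated where it, or its reverse complement, occurred more than once in the assembled chromosomes. The share of such words had a median of 36.4% in the 8 member bins (5.37% to 67.0%), 50.7% in the 5 bins between members and 8.67% in the 25 flank bins. Across bins, the share ran against the mean score, with Pearson r of -0.880 in the Zscan4 window (15 bins), -0.972 in the Tdpoz window (12 bins) and -0.566 in the Tcstv window (11 bins), or -0.731 there over the 9 bins with under 50% gap. These correlations describe neighbouring bins of 1 window each, flank included, which share libraries, and carry no p. Base composition differed between bins, with GC from 37.2% to 42.9% in the Zscan4 window, and its part was not tested. Over all 23972 bins the soft-masked share had r of -0.432 with the mean score, and -0.521 over the 38 window bins. The authors kept reads with a mapping quality above 10, which removes reads without a clear best place, and the part of this filter in the scores was not tested.

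**Figure D3:**
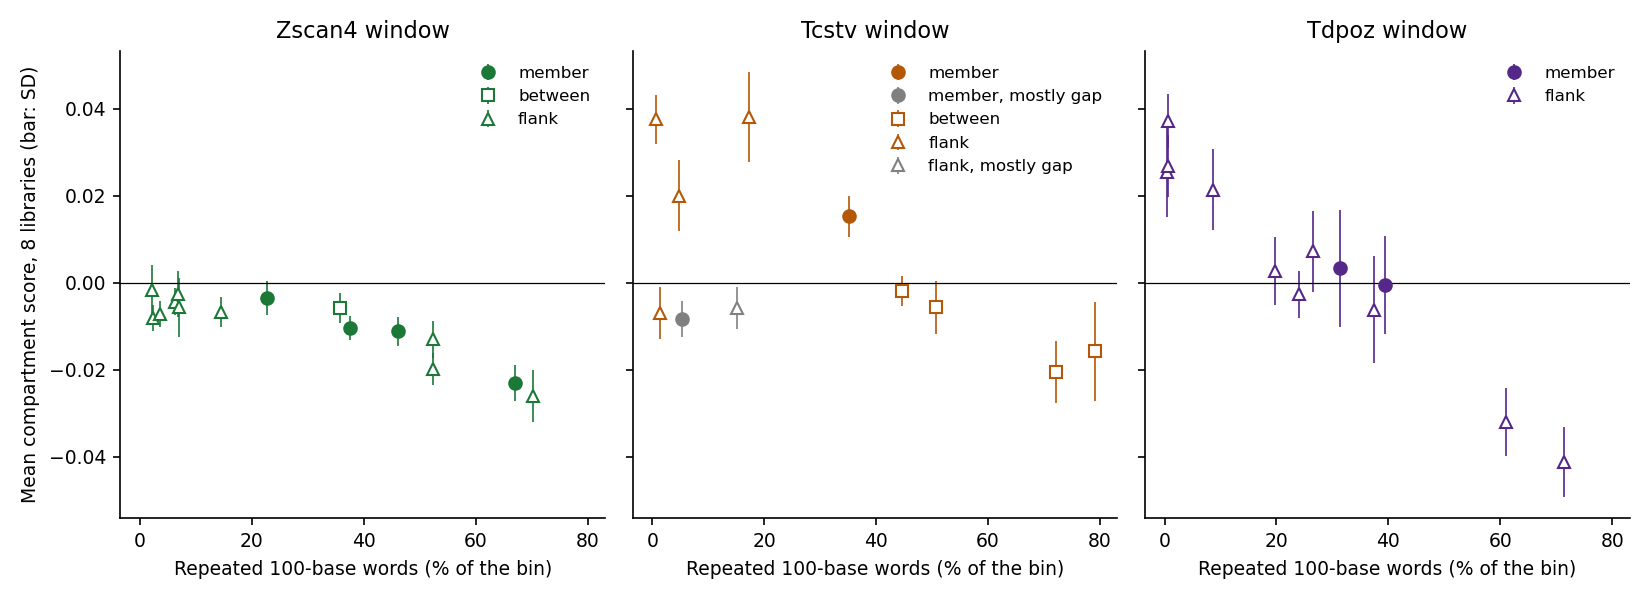
Mean compartment score over the 8 libraries (vertical axis, no unit, bars are the SD) against the share of repeated 100-base words in the bin (horizontal axis, percent), 1 panel per window. Filled circles are member bins, squares bins between members and triangles flank bins, and grey marks bins that are mostly assembly gap. In the Tdpoz and Zscan4 windows the bins with the most repeated words, above 60%, have the lowest scores.

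To ask whether inhibition of G9a/GLP moved the clusters, each library given UNC0642 was set against its partner without UNC0642. In Setdb1 WT the Tdpoz mean changed by -0.0221, from 0.00783 to -0.0143, with both bins going from A to B. That is 2 of 8 member bins falling by at least 0.01, where 4.62% of all bins did, and 2 of 8 going from A to B, where 2.45% of all bins did. The Tdpoz flank changed by -0.0114 in the same pair, which leaves a difference of -0.0108 beyond it. In the other backgrounds the Tdpoz mean changed by -0.00207 (Setdb1 KO), -0.000190 (Suv39h WT) and -0.00302 (Suv39h DKO). No member bin changed by 0.01 in Setdb1 KO (0 of 8 rising, against 0.755% of all bins, and 0 of 8 falling, against 0.934%) or in Suv39h WT (0 of 8 each, against 2.26% rising and 2.53% falling).

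The change of the Tdpoz mean under UNC0642 was therefore below 0 in 4 of 4 pairs, averaging -0.00685 ± 0.0102 (SD, n = 4 pairs). Its bins both fell in the Setdb1 WT pair alone and moved in opposite directions in the others. Tdpoz4 and Tdpoz3 changed by 0.00448 and -0.008625 in Setdb1 KO and by -0.00248 and 0.00210 in Suv39h WT. In Suv39h DKO they changed by 0.000352 and -0.00640. The exact two-sided sign-flip permutation test gave p = 0.125, the smallest that 4 pairs allow, and 0.375 after adjustment over the 3 clusters. Without the Setdb1 WT pair the mean Tdpoz change was -0.00176, so its size rests on that pair. Which library of that pair accounts for this was not tested. For Zscan4 the mean change was -0.00118 ± 0.00140 (3 of 4 pairs below 0, exact permutation p = 0.25, adjusted 0.375), with -0.000677 without the Setdb1 WT pair and -0.000402 over the bins that hold a transcription start. For Tcstv it was -0.00331 ± 0.00545 (3 of 4 pairs below 0, exact permutation p = 0.375, adjusted 0.375), and -0.000901 without the Suv39h DKO pair. The largest Tcstv change, -0.0105, was in Suv39h DKO, where both bins were lower by at least 0.01 (2 of 8 member bins, against 3.69% of all bins), while the Tcstv flank changed by 0.00799. With the implied chromosome mean added to the scores, 0 in place of 2 bins passed 0.01 there. In that pair 1 of 8 member bins, that of Tdpoz3, went from A to B, as did 1.92% of all bins.

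The UNC0642 changes of the clusters were also set against each other, in a test that cannot give a p below 0.125 with 4 pairs. The mean difference was 0.00213 ± 0.00622 for Zscan4 minus Tcstv, 0.00567 ± 0.00931 for Zscan4 minus Tdpoz and 0.00354 ± 0.0106 for Tcstv minus Tdpoz (SD, n = 4 pairs), with exact permutation p of 0.75, 0.375 and 0.625 and an adjusted p of 0.75 for each. Without the Setdb1 WT pair these means were 0.00226, 0.00108 and -0.00118, and without the Suv39h DKO pair -0.000766, 0.00646 and 0.00722. Relative to their flanks the changes were -0.000727 for Zscan4, -0.00231 for Tcstv and -0.00254 for Tdpoz, each below 0 in 2 of 4 pairs (exact permutation p 0.875, 0.75 and 0.625). Their signs turned when 1 pair was left out, to 0.000602 for Zscan4 without the Setdb1 KO pair, 0.00309 for Tcstv without the Suv39h DKO pair and 0.000199 for Tdpoz without the Setdb1 WT pair. In limma, 0 of 8 member bins were called for UNC0642 at an adjusted p under 0.05, as were 0% of all bins. At an unadjusted p under 0.05 there was 1 member bin, that of Tdpoz3, against 4.95% of all bins. Its estimate was -0.00939 (SE 0.00352, 95% interval -0.0172 to -0.00156, limma adjusted p = 0.957). Without Setdb1 WT + UNC it was -0.00431 (SE 0.00258, limma adjusted p = 0.891), and 0 of 8 member bins had an unadjusted p under 0.05, against 5.57% of all bins.

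The Tdpoz scores were higher in the libraries without SETDB1. Without UNC0642, Setdb1 KO had a Tdpoz mean of 0.0194 against 0.00783 for its untreated parent, a difference of 0.0116, and the flank differed by 0.00562. The Tdpoz3 bin alone passed 0.01, which makes 1 of 8 member bins rising, against 1.4% of all bins. Setdb1 KO + UNC was above Setdb1 WT by 0.00952, and here the Tdpoz4 bin alone passed 0.01 (1 of 8, against 1.46% of all bins). In each of these pairs 1 of 8 member bins, that of Zscan4d, went from B to A, as did 1.71% and 1.87% of all bins. Under UNC0642 the difference between Setdb1 KO and Setdb1 WT was 0.0316, from -0.0143 to 0.0174, and 0.0152 beyond the flank. In that pair 3 of 8 member bins were higher by at least 0.01, against 7.16% of all bins, both Tdpoz bins and that of Zscan4d, and all 3 went from B to A, as did 3.14% of all bins. That pair contains Setdb1 WT + UNC.

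At Zscan4 the differences were smaller, 0.00471 without UNC0642 and 0.00536 with it, and at Tcstv -0.000716 and 0.00541. Averaged over both pairs the Tcstv difference was 0.00235 in the member bins and 0.00667 over all bins from first to last member. The difference Zscan4 minus Tdpoz was -0.00688 without UNC0642 and -0.0263 with it, and Tcstv minus Tdpoz -0.0123 and -0.0262. Sign-flip tests were not run on 2 pairs, and the SETDB1 contrast was tested bin by bin in limma. The difference between clusters was not tested. Zscan4d had the largest Zscan4 change, 0.00832 without UNC0642 and 0.0105 with it.

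In limma, with 2 libraries against 2, 0 of 8 member bins were called for SETDB1 loss, as were 0% of all bins. At an unadjusted p under 0.05 there were 3 of 8, those of Tdpoz3, Tdpoz4 and Zscan4d, against 9.1% of all bins. The estimates were 0.0235 (SE 0.00498, 95% interval 0.0124 to 0.0346, limma adjusted p = 0.274) for Tdpoz3, 0.0197 (SE 0.00479, 0.00909 to 0.0304, limma adjusted p = 0.311) for Tdpoz4 and 0.00939 (SE 0.00280, 0.00318 to 0.0156, limma adjusted p = 0.368) for Zscan4d. From the highest down, the estimate of Tdpoz3 was number 19 and that of Tdpoz4 number 49 of 23972. Without Setdb1 WT + UNC the estimates were 0.0133 for Tdpoz3, 0.00954 for Tdpoz4 and 0.00728 for Zscan4d, with a limma adjusted p of 1.0 for each, and 2 of 8 member bins, those of the Tdpoz genes, had an unadjusted p under 0.05, against 3.79% of all bins. With all libraries the estimates were above 0 in 12 of 12 bins of the Tdpoz window, from 0.00114 to 0.0235, so higher estimates were not limited to the member bins. In simulated scores with 200 changed bins and no line differences, the fit recovered 53.5% of SETDB1 changes of 0.02 and 0% of changes of 0.01.

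**Figure D4:**
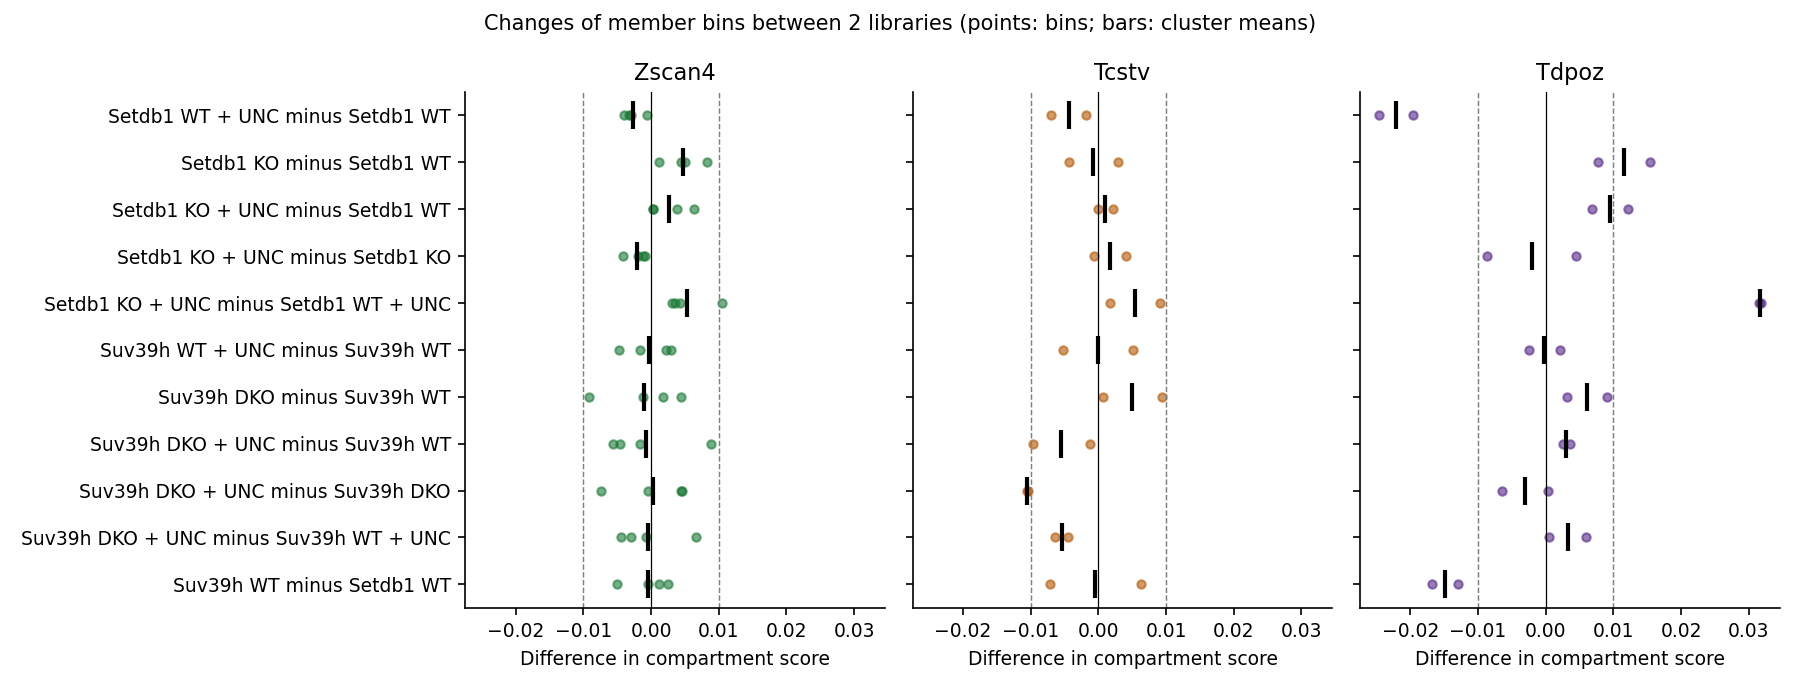
Difference in compartment score (horizontal axis, no unit) of each member bin (points) and of the cluster mean (black bars) in 11 comparisons of 1 library with 1 (rows), 1 panel per cluster, with dashed lines at -0.01 and 0.01. Zscan4 means stay within 0.00536 of 0, whereas Tdpoz means reach -0.0221 and 0.0316 in comparisons that include Setdb1 WT + UNC.

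Between Suv39h DKO and Suv39h WT the Tdpoz and Zscan4 means differed by less than in the SETDB1 pairs. The Tdpoz mean was -0.00703 in Suv39h WT and -0.000942 in Suv39h DKO, a difference of 0.00609, and was 0.00326 higher in Suv39h DKO + UNC than in Suv39h WT + UNC. For Tcstv these differences were 0.00504 and -0.00544, of opposite sign, and for Zscan4 -0.00101 and -0.000400. None of the 8 member bins changed by at least 0.01 in Suv39h DKO (0 of 8 rising, against 3.64% of all bins, and 0 of 8 falling, against 3.73%), nor in the pair under UNC0642 (2.98% and 3.86% of all bins). Without UNC0642, 1 of 8 member bins, that of Tdpoz3, went from B to A, as did 2.92% of all bins. Suv39h DKO + UNC against Suv39h WT gave Tdpoz 0.00307, Tcstv -0.00548 and Zscan4 -0.000708, with 0 of 8 bins rising (4.53% of all bins) or falling (5.27%). In limma 0 of 8 member bins were called for SUV39H1/2 loss, as were 0% of all bins, and 0 of 8 had an unadjusted p under 0.05, against 9.6% of all bins. The lowest limma adjusted p was 0.546, for the left bin of Zscan4f with an estimate of -0.00607 (SE 0.00298). Leaving out Setdb1 WT + UNC gave 0 of 8 at an unadjusted p under 0.05, against 11.2% of all bins, and a lowest limma adjusted p of 0.481.

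Whether the knockouts differed was tested in the same fit, as SUV39H1/2 loss minus SETDB1 loss. The difference was -0.0187 (SE 0.00704) for Tdpoz3, -0.0151 (SE 0.00678) for Tdpoz4, -0.0122 (SE 0.00395) for Zscan4d and -0.0100 (SE 0.00421) for the left bin of Zscan4f. These 4 of 8 member bins had an unadjusted p under 0.05, against 11% of all bins, and 0 of 8 were called, as were 0% of all bins. The lowest limma adjusted p was 0.336. Without Setdb1 WT + UNC the differences were -0.00857 for Tdpoz3, -0.00496 for Tdpoz4, -0.0101 for Zscan4d and -0.00860 for the left bin of Zscan4f, with 1 of 8 member bins at an unadjusted p under 0.05, that of Zscan4d, against 7.35% of all bins. The line by UNC0642 term called 0 of 8 (0% of all bins), with 1 of 8 at an unadjusted p under 0.05, against 3.67% of all bins, that of Tdpoz3 with 0.0145 (SE 0.00575), and a limma adjusted p of 1.0 throughout. The Tdpoz3 value without Setdb1 WT + UNC was 0.00648 (SE 0.00555), and then 1 of 8 member bins, that of Tcstv3, had an unadjusted p under 0.05, against 3.05% of all bins.

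The untreated WT lines differed at Tdpoz by more than most perturbed pairs did. Suv39h WT minus Setdb1 WT was -0.0149, with both bins falling by at least 0.01 (2 of 8 member bins, against 6.27% of all bins) and going from A to B (2 of 8, against 2.59%). Under UNC0642 the order was reversed, with a difference of 0.00706 between Suv39h WT + UNC and Setdb1 WT + UNC. Zscan4 differed between the lines by -0.000438 and 0.00193, and Tcstv by -0.000430 and 0.00392. The mean Tcstv difference of these pairs was 0.00175, or 0.00414 over all bins from first to last member. In limma 0 of 8 member bins were called, where 0.129% of all bins were called as higher and 0.234% as lower in Suv39h WT. At an unadjusted p under 0.05 there were 0 of 8, against 13.5% of all bins, and the lowest limma adjusted p was 0.391. Without Setdb1 WT + UNC the estimates were -0.0136 (SE 0.00408, limma adjusted p = 0.159) for Tdpoz3 and -0.0146 (SE 0.00361, limma adjusted p = 0.104) for Tdpoz4, and these 2 of 8 member bins had an unadjusted p under 0.05, against 15.3% of all bins.

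**Figure D5:**
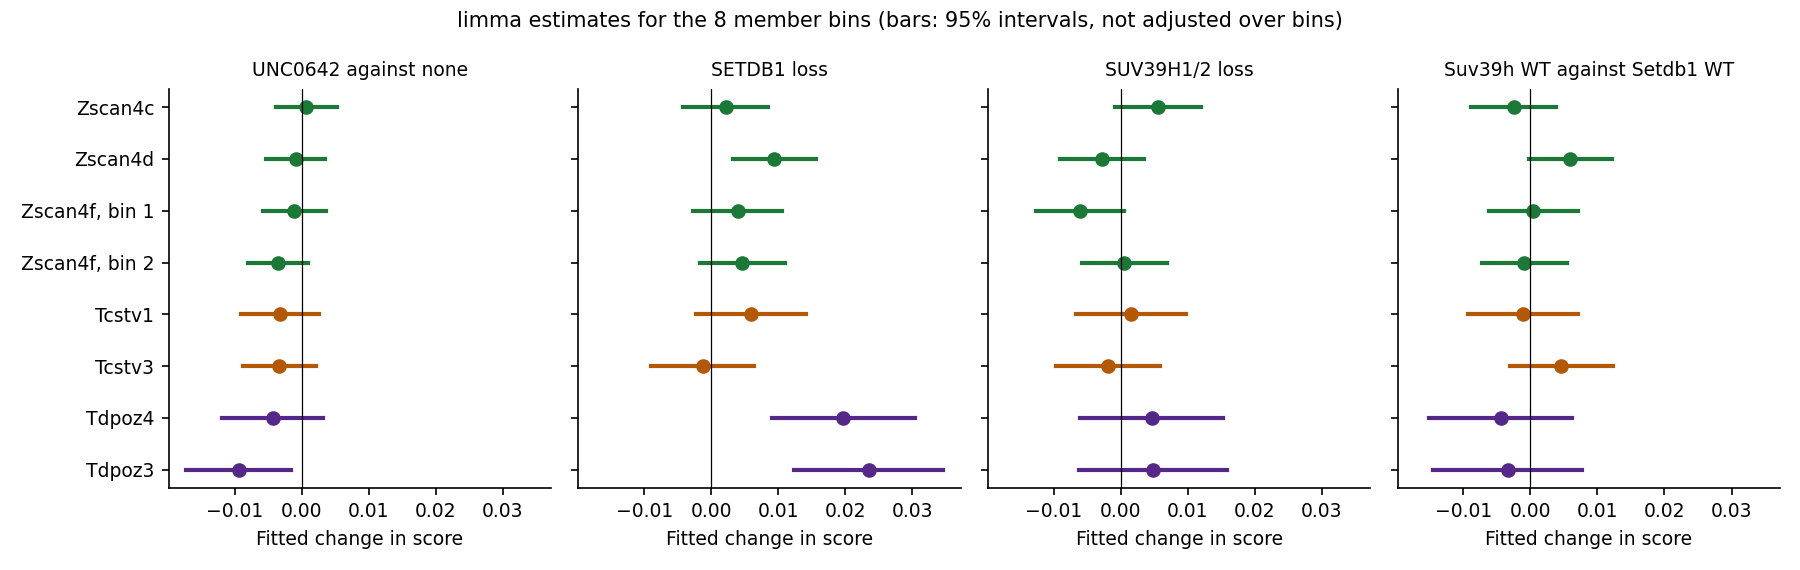
Fitted change in compartment score (horizontal axis, no unit) of the 8 member bins (rows) in 4 limma comparisons (panels), with unadjusted 95% intervals as bars. The intervals of Tdpoz3, Tdpoz4 and Zscan4d exclude 0 for SETDB1 loss and that of Tdpoz3 for UNC0642, and none of these has an adjusted p under 0.05.

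Across the windows, the largest estimates were often not at the member bins. For SETDB1 loss 14 of 38 window bins had an unadjusted p under 0.05, 8 of 12 in the Tdpoz window, 4 of 15 in the Zscan4 window and 2 of 11 in the Tcstv window, against 9.1% of all bins. Without Setdb1 WT + UNC there were 8 of 38, of which 6 in the Tdpoz window, 0 in the Zscan4 window and 2 in the Tcstv window, against 3.79% of all bins. With all libraries the counts were 5 of 38 for UNC0642 (4.95% of all bins), 2 of 38 for SUV39H1/2 loss (9.6%) and 6 of 38 between the lines (13.5%). Leaving out Setdb1 WT + UNC gave 3 of 38 for UNC0642 (5.57%) and 3 of 38 for SUV39H1/2 loss (11.2%). Estimates between the lines without it are given below. In the Tcstv window the largest change lay between the members, at 0.0163 (SE 0.00564, limma adjusted p = 0.433) over Gm21188 and Gm36079, and 0.00433 without Setdb1 WT + UNC. That bin scored -0.0158 ± 0.0113 (SD, n = 8 libraries). For SUV39H1/2 loss the largest window changes were 0.0103 (SE 0.00356, limma adjusted p = 0.414) over Tdpoz1 and Tdpoz2 and -0.0108 (SE 0.00326, limma adjusted p = 0.386) over Gm21761. Between the lines the largest was 0.0214 (SE 0.00564, limma adjusted p = 0.162), again over Gm21188 and Gm36079, then -0.0136 (SE 0.00303, limma adjusted p = 0.103) over Hrnr and Rptn. Without Setdb1 WT + UNC, which scored -0.0407 in the Gm21188 bin, these were 0.00949 and -0.0173 (limma adjusted p of 0.344 and 0.0648).

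A list of 41 further genes of the 2-cell stage placed the members among their kind. All 41 had a score, 30 of them outside the windows, and 29 were in B and 4 in A in all 8 libraries, with a median score of -0.0130. Of 20721 protein-coding autosomal genes with a score, 21.2% were in B and 70.8% in A in all 8 libraries. For UNC0642, 0 of 41 moved one way by at least 0.01 in all 4 pairs (by this rule 0.00417% of all bins were higher and 0% lower). For SETDB1 loss 1 did in both pairs, against 0.567% of all bins rising and 0.129% falling. It was Zfp352, a zinc finger gene, with -0.0181, -0.0294, -0.00670 and -0.00745 in the Setdb1 libraries in the order WT, WT + UNC, KO, KO + UNC (limma adjusted p = 0.274, and 1.0 without Setdb1 WT + UNC). Among the member bins that of Tdpoz3 did so too, 1 of 8.

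For SUV39H1/2 loss 3 genes changed by at least 0.01 in both pairs, against 0.35% of all bins rising and 0.509% falling. Tdpoz1 and Tdpoz2 share 1 bin, and their mean change was 0.0103, whereas Gm21761 changed by -0.0108. Between the lines there were 5, against 0.855% of all bins rising and 0.964% falling, each given as Suv39h minus Setdb1. AA792892 and D5Ertd577e on chromosome 5 differed by -0.0199 and -0.0175, BB287469 and Gm2016, in 1 bin of chromosome 12, by -0.0147, and Sp110 by 0.0138. Of these the bin of AA792892 was called by limma (adjusted p = 0.0216, and 0.0460 without Setdb1 WT + UNC), with scores of -0.0457 and -0.0432 in Setdb1 WT and WT + UNC and -0.0653 and -0.0634 in Suv39h WT and WT + UNC.

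The regulators lay in A, as most protein-coding genes did (70.8% in all 8 libraries). Of 4 activators, Duxf3, which encodes DUX, was above 0 in 8 of 8 libraries, as were Dppa2, which acts upstream of it, and Nelfa, while Dppa4, the partner of Dppa2, was above 0 in 7 of 8. In that order Duxf3 scored 0.00705, 0.00651, 0.0196 and 0.0161 in the Setdb1 libraries, with an estimate for SETDB1 loss of 0.0111 (limma adjusted p = 0.376), or 0.0118 without Setdb1 WT + UNC (limma adjusted p = 1.0). All 10 repressors, among them Trim28, Kdm1a, Chaf1a and Setdb1, were in A in all 8 libraries, with a median score of 0.0341, as were 8 of 8 stem cell markers, Pou5f1, Nanog and Sox2 among them, with a median of 0.0396. None of the activators, repressors or markers changed by at least 0.01 in every pair of any comparison.

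The genes elsewhere whose scores varied most like each cluster over the 8 libraries were ranked by Pearson r, as a description. For Zscan4 these were Gdf3 and Dppa3, which share a bin on chromosome 6 (r of 0.979), and Dbndd1 (0.974). For Tcstv they were Cavin2 (0.986), Igf2bp2 (0.975) and 9130409I23Rik (0.953), and for Tdpoz Slc22a8 (0.986) and Cd209e and Cd209d, in 1 bin of chromosome 8 (0.984). The highest of 18698 to 19858 genes over 8 libraries is high by selection alone. Their levels differed from those of the clusters, with Gdf3 and Dppa3 in A from 0.0254 to 0.0373, whereas Slc22a8, from -0.00561 to 0.0233, crossed 0 as the Tdpoz genes did.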

How the data were processed

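The deposited values are compartment scores, with 1 file for each of 8 Hi-C libraries. The authors cut chromatin with DpnII, aligned reads to mm10 with the 4DN Hi-C pipeline, kept a mapping quality above 10, and computed scores with Juicer Tools from KR-normalised intrachromosomal maps of the 19 autosomes in 100-kb bins. The files hold no counts, and sequencing depth was not used here, so no counting error or floor is given. Hi-C was repeated in the study, but whether a file holds 1 repeat or a pool is not given in the sources used here, and p-values measure the spread between these libraries alone.

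Genes came from GENCODE vM21 (GRCm38, coordinates of mm10), and sequences from RefSeq GRCm38.p6. Named were all 7 members, their window bins, neighbours in the highest, lowest and most changed bins, list genes changing by at least 0.01 in every pair or fixed by name, and the 3 most similar genes per cluster. One result that this rule would name is not reported here. Members and lists were chosen with earlier results of these data known. Scores of 23972 bins were fitted with limma 3.58.1 (R 4.3.3), with background as a block and UNC0642 as a term, and p-values were adjusted over all bins (Benjamini-Hochberg, 0.05). The fit was tested on simulated data. Cluster means were tested by exact sign-flip permutation over 4 pairs. Pairs of 1 library against 1 have no test. Alternatives covered scaling, centring, bins, thresholds, limma settings and libraries. Alignments used Biopython 1.88.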

Additional observations from a re-analysis of the deposited data

How the results depend on the processing

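No limma call was made at any member bin under any alternative run (scaling, quantile normalization, centring, bins in any library, robust and trend settings, no background block, and subsets of libraries), so 0 of 8 held throughout. The Tdpoz mean change with SETDB1 loss, 0.0216 over both pairs, was 0.0116 in the pair without UNC0642, which leaves out Setdb1 WT + UNC. The member bin changing by at least 0.01 in both SETDB1 pairs was no longer counted at 0.02 (0 in place of 1). At 0.02 the member bins changing in a pair numbered 1 in place of 2 for Setdb1 WT + UNC against Setdb1 WT, 0 in place of 1 for each Setdb1 KO library against Setdb1 WT, 0 in place of 2 for Suv39h DKO + UNC against Suv39h DKO, 0 in place of 2 for Suv39h WT against Setdb1 WT, and 2 in place of 3 for the pair of Setdb1 libraries under UNC0642. With the implied chromosome mean subtracted, Suv39h DKO + UNC against Suv39h WT had 1 in place of 0, and with it added, Suv39h DKO + UNC against Suv39h DKO had 0 in place of 2. The cause was not tested, except that a higher threshold counts fewer bins by construction. Leaving out each background pair in turn gave UNC0642 means from -0.00907 to -0.00176 for Tdpoz, -0.00498 to -0.000901 for Tcstv and -0.00167 to -0.000677 for Zscan4. Leaving out Setdb1 WT + UNC for SUV39H1/2 loss, the line difference, the difference between knockouts and the line by UNC0642 term, and each pair for the change relative to flank, was chosen after seeing the data. Relative to a flank of 300 kb or 1 Mb, the UNC0642 changes were -0.00158 and -0.000598 for Zscan4, -0.00101 and -0.00329 for Tcstv, and -0.00170 and -0.00428 for Tdpoz. The samples carry no replicate numbers that pair them, and the pairing by background is part of the main fit. Each group held 1 library, and the files hold no depth. With 200 changed bins in simulated scores, the limma fit recovered 0% of changes of 0.01. Those scores held no differences between lines, and detection at the member bins themselves was not simulated.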
